A study of Arabidopsis thaliana with 16 samples.

Results

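The response of wild type root tips to salt was measured on 4 Affymetrix ATH1 arrays, 2 from seedlings moved for 1 hour to medium with 140 mM NaCl and 2 from seedlings moved for 1 hour to standard medium. Their titles, which state genotype and medium, picked them out of a set of 16 arrays that covers 4 genotypes. All 22746 probe sets of the array that are not controls were considered, and 17059 of them were bright enough to be tested. The plants were Arabidopsis thaliana of the Columbia accession, 5 days old, and carried no mutation named in the labels. The other 12 arrays came from 3 mutant lines on the same pair of media, scm-2, the double mutant cpc-1 try-82 and the double mutant wer-1 myb23-1. These are also in Columbia, and their root epidermis places hairs in an altered pattern. They helped to estimate the spread between replicate arrays and gave a salt response to set beside that of wild type. Per the labels each array held about 30 pooled roots, cut about 5 mm above the tip, and the 2 arrays of a group are biological replicates. For the mutant arrays titled as standard, the labels have NaCl under growth medium, and the titles were followed, whereas for the wild type arrays the title and the entry name the same medium. Each value is an average over the cell types of the tip and over the pooled plants, so fewer cells of a type and less RNA per cell cannot be told apart.

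Salt in the medium lowers the water potential around the root and brings sodium into it, so that the outermost cells meet both water deficit and ion stress. Water deficit is known to raise abscisic acid, a hormone that switches on genes of protective proteins such as the late embryogenesis abundant proteins and dehydrins. Cell expansion in the root depends on enzymes that loosen and rebuild the xyloglucan and cellulose of the wall, and root growth is known to slow soon after a shift to salt.

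The values are MAS5 signals, linear probe set intensities on a common scale: leaving out the outer 2% on both sides, all 4 arrays had a mean of 250.03. Median signals lay between 78.2 and 86.1. Across the tested probe sets the log2 signals of the standard replicates correlated with r = 0.93 and those of the salt replicates with r = 0.92, and a standard array and a salt array with r from 0.88 to 0.90. Probe sets share arrays and are not independent replicates, so these are descriptions. The ratio of 3′ to 5′ signal of 1 GAPDH control was 2.37 and 2.41 on standard medium and 2.12 and 2.01 on salt, and that of 3′ to middle signal of the actin control was 5.73 and 5.79 against 6.96 and 5.24. Other control pairs were further apart. For actin the 3′ signals were 8667 and 8379 on standard medium and 8236 and 8091 on salt, and the 5′ signals 488 and 396 against 335 and 436. Another GAPDH control had 9406 and 9093 against 8310 and 9902 at 3′, and 1750 and 1800 against 1843 and 2199 at 5′. The 9 spike-in controls had ratios of salt to standard signal from 0.759 to 1.03. Of 27 cell type markers of the root tip and of leaves only the root hair expansins EXPA7 and EXPA18 had a named probe set, so hair cells were the only cell type that could be checked. EXPA7 had signals of 873.8 and 1010 on standard medium and 1171 and 793.7 on salt, with a log2 change of 0.04 that was not called (adjusted p = 0.96), and EXPA18 fell, as described with the wall genes. Changes in the share of the other cell types were not tested.

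One hour on salt changed 1516 of the 17059 probe sets (8.89%), of which 852 rose (4.99%) and 664 fell (3.89%). A probe set was called when limma's test of log2(signal + 4.10) gave an adjusted p under 0.05, and the log2 changes below are on that scale, which understates the change of dim probe sets. At an unadjusted p under 0.05 the count was 3562 (20.9%). The balance of rises and falls turned with median-centred arrays, to 758 and 767, and without salt replicate 1, to 726 and 827. The count of calls dropped to 984 without standard replicate 2 and to 917 without salt replicate 2. The number of arrays, 2 per medium, limits the precision. Rises reached further than falls, with 226 rises of at least 2 on the log2 scale (69 of at least 3 and 21 of at least 4) against 108 falls of at least 2 (28 and 2). The median change was 1.33 among the probe sets that rose and -1.16 among those that fell. Probe sets that fell had a median signal of 421.8 on standard medium and 176.2 on salt. Those that rose had 139 on standard medium and 382.8 on salt, beside 137.7 and 143 for all tested probe sets. By the call itself, standard medium is the higher level of the former and the lower level of the latter. The gap between them on standard medium is therefore not a comparison of brightness. For every called probe set both salt arrays lay on the same side of both standard arrays. With 2 arrays per medium this largely follows from the call and adds no support to it. Counted over the 9491 genes that a tested probe set names alone, 427 rose (4.5%) and 363 fell (3.82%), together 8.32%, and the median over all of them was -0.00398. The counts of the gene lists below are to be read beside these shares. Of the 1270 tested genes with a symbol beyond the locus number, 58 rose and 66 fell. The plot of change against signal shows the called genes over the range of brightness.

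**Figure D1:**
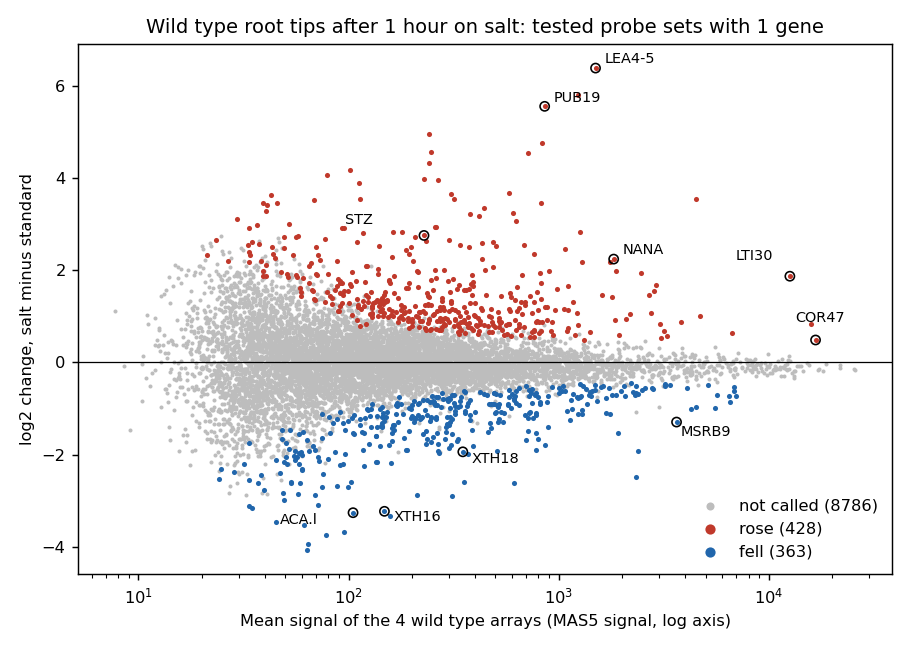
Log2 change on salt against the mean signal of the 4 wild type arrays (log axis) for the tested probe sets with 1 gene, with 428 that rose in red, 363 that fell in blue, the others in grey and 10 genes of the text circled. LEA4-5, at 6.39, stands highest, and LTI30 and COR47 are among the brightest probe sets that rose.

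Genes of protective proteins made in drying cells included the largest rise among genes with a single named probe set. LEA4-5 (AT5G06760), a late embryogenesis abundant protein, had signals of 37.5 and 25.7 on standard medium and 2702 and 3219 on salt, which is 93.7-fold in the means and a log2 change of 6.39 ± 0.21 (SE, n = 2 arrays per medium, adjusted p = 5.9e-14). LEA18 (AT2G35300), of the same class, had signals of 12.4 and 19.4 on standard medium and 359.6 and 595 on salt and rose by 4.56 ± 0.43 (adjusted p = 2.3e-07). Both sets of salt arrays stood far above the standard arrays, which lay near or under the 25th percentile of all signals, 25.3. The dehydrins, hydrophilic proteins that keep membranes and enzymes in shape when water is lost, started from a high level instead. LTI30 (AT3G50970) had signals of 5261 and 5492 on standard medium and 17930.1 and 21602 on salt and rose by 1.87 ± 0.17 (adjusted p = 2.3e-07). COR47 (AT1G20440) was among the brightest transcripts on either medium, with 14004 and 13692 on standard medium and 18008 and 20929.9 on salt, and rose by 0.49 ± 0.13 (adjusted p = 0.024), a call that was lost without standard replicate 1 (0.50), standard replicate 2 (0.47) or salt replicate 2 (0.38). Of the 14 genes of late embryogenesis, dehydrin and cold-regulated proteins with a named probe set 11 were tested, and 4 of them rose, those just given, beside 4.5% of all genes, while the other 7 were not called. The median change of the 11 was 0.49. This list was drawn by gene symbol, so genes of these classes that the annotation gives only as a locus number are missing from it. Its counts therefore do not describe the whole of these families. The same limit holds for the other lists drawn by gene symbol.

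Other cold-regulated genes did not pass the test. COR15A (AT2G42540), which protects chloroplast membranes in the cold, had signals of 4.35 and 49.3 on standard medium and 101 and 77.5 on salt and a change of 2.13 ± 0.91 (adjusted p = 0.18), and the gap between the standard arrays was wide. COR27 (AT5G42900), a regulator of cold responses and of the clock, had 31.6 and 2.27 on standard medium and 53.7 and 76.3 on salt and a change of 2.18 ± 0.80 (adjusted p = 0.10). This value rested on the standard arrays, since COR27 was called without standard replicate 1 (3.42, adjusted p = 0.018) and stood at 0.93 without standard replicate 2. COR15B (AT2G42530), the near copy of COR15A, had 42.5 and 57.9 on standard medium and 40.4 and 83.3 on salt and a change of 0.21 ± 0.54, and its arrays overlapped. SRC2 (AT1G09070), a C2 domain protein named after a cold-regulated soybean gene, rose by 1.94 ± 0.26 (adjusted p = 3.3e-05), from 1460.5 and 672 to 4309 and 3354. SIS (AT5G02020), the salt-induced serine-rich protein, had signals of 81.0 and 35.8 on standard medium and 1409 and 1318 on salt, 23.4-fold in the means.

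Several transcription factors rose, most of them from a moderate level. STZ (AT1G27730), a zinc finger protein that represses transcription under stress, had signals of 66.0 and 46.3 on standard medium and 349.6 and 452 on salt and rose by 2.76 ± 0.27 (adjusted p = 5.3e-07). LEP (AT5G13910), an AP2/ERF factor named for its effect on the petiole, had 316 and 302 on standard medium and 989 and 936 on salt and rose by 1.63 ± 0.24 (adjusted p = 7.8e-05). WRKY6 (AT1G62300), a factor of senescence and phosphate responses, had 598 and 613 on standard medium and 1319 and 991 on salt and rose by 0.91 ± 0.18 (adjusted p = 0.0024). For these 3 genes both salt arrays stood well above both standard arrays, and the salt replicates differed most in WRKY6. WRKY6 was the only riser among the 5 tested WRKY factors, beside 4.5% of all genes. None of the 5 was called as lower in limma or at an unadjusted p under 0.05. BZIP60 (AT1G42990), the factor that a splicing step activates when unfolded proteins build up in the endoplasmic reticulum, rose from 486 and 522 to 829 and 896, by 0.77 ± 0.20 (adjusted p = 0.017), and the call was lost without standard replicate 1 (0.72), standard replicate 2 (0.82) or salt replicate 2 (0.71). EIN3 (AT3G20770), the main factor of ethylene signalling, had 436 and 294 on standard medium and 549 and 585 on salt (adjusted p = 0.037), and the call was lost without standard replicate 2 (0.38), salt replicate 1 (0.70) or salt replicate 2 (0.61).

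A pair of helix-loop-helix factors of iron supply were the only members called among 15 tested genes of iron and metal homeostasis. Both rose, beside 4.5% of all genes. The transcript of bHLH121 (AT3G19860), which switches on the iron deficiency response, had signals of 57.8 and 36.6 on standard medium and 140.3 and 145 on salt and rose by 1.55 ± 0.32 (adjusted p = 0.0033). PYE (AT3G47640), POPEYE, a repressor of iron storage and transport genes, had 93.3 and 69.4 on standard medium and 169.7 and 224 on salt and rose by 1.23 ± 0.30 (adjusted p = 0.012). The call for bHLH121 was lost without standard replicate 2 (1.24), and that for PYE without standard replicate 2 (1.03) or salt replicate 2 (1.04). The factors ILR3 and bHLH104, which act in the same response, stood at -0.19 and -0.16 and were not called. The median of the 15 genes was 0.10.

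Other transcription factors fell. HAT2 (AT5G47370), an auxin-induced homeodomain factor, had signals of 459 and 381 on standard medium and 159 and 71.1 on salt and fell by 1.93 ± 0.29 (adjusted p = 1.1e-04). The AP2/ERF factor tny (AT5G25810), TINY, had 870.4 and 1455 on standard medium and 430.3 and 345 on salt and fell by 1.54 ± 0.26 (adjusted p = 4.3e-04). SCL21 (AT2G04890), a GRAS protein of phytochrome A signalling, had 179 and 139.6 on standard medium and 63.2 and 40.9 on salt and fell by 1.56 ± 0.29 (adjusted p = 9.7e-04). In each of the 3 the lower standard array stood above the higher salt array by at least a factor of 2. BZIP61 (AT3G58120) fell by 1.19 ± 0.28 (adjusted p = 0.0074), with a call lost without salt replicate 1 (-0.93). HYH (AT3G17609), the homologue of the light-signalling factor HY5, fell by 0.76 ± 0.23 (adjusted p = 0.046), and JKD (AT5G03150), JACKDAW, a zinc finger protein of root ground tissue that also acts on epidermal patterning, by 1.46 ± 0.40 (adjusted p = 0.023). The call for HYH was lost without standard replicate 1 (-0.67), standard replicate 2 (-0.86) or salt replicate 2 (-0.37), and that for JKD without standard replicate 1 (-1.40), standard replicate 2 (-1.51) or salt replicate 2 (-0.99). Of 11 tested bZIP factors 1 rose and 2 fell, and of 7 tested AP2/ERF factors, a list made after the values were seen, 1 rose and 1 fell. Over all genes 4.5% rose and 3.82% fell.

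Among genes that attach ubiquitin, a mark for protein breakdown, or remove it, some members were called, most of them as rises. PUB19 (AT1G60190), a U-box ubiquitin ligase that dampens abscisic acid and drought responses, had signals of 32.3 and 28.9 on standard medium and 2100.2 and 1266 on salt, a rise of 5.56 ± 0.27 (adjusted p = 3.5e-11). PUB24 (AT3G11840), known for restraining immune responses together with PUB22 and PUB23, had 53.6 and 5.87 on standard medium and 91.0 and 116 on salt and rose by 2.15 ± 0.53 (adjusted p = 0.012), a call that was lost without standard replicate 2 (0.89) or salt replicate 2 (1.99). PUB22 and PUB23 stood at -0.42 and 0.06 and were not called. Of the 8 tested U-box genes 2 rose, beside 4.5% of all genes, and their median was 0.30. SKP2A (AT1G21410), an F-box protein that directs cell cycle regulators to breakdown, had 66.0 and 24.6 on standard medium and 297 and 330.1 on salt and rose by 2.82 ± 0.40 (adjusted p = 6.0e-05). Both salt arrays of SKP2A stood above 4 times the higher standard array. UBC32 (AT3G17000), a ubiquitin-conjugating enzyme of the endoplasmic reticulum, rose by 0.95 ± 0.20 (adjusted p = 0.0028) and was the only member called of 11 tested conjugating enzymes, with a call lost without salt replicate 2 (0.80). Among 12 tested ubiquitin-specific proteases UBP22 (AT5G10790), which removes ubiquitin from histone H2B, rose by 1.46 ± 0.31 (adjusted p = 0.0033) and UBP24 (AT4G30890) fell by 0.63 ± 0.18 (adjusted p = 0.030). The rises were 9.09% of the conjugating enzymes and 8.33% of these proteases, beside 4.5% of all genes. The fall was 8.33% of the proteases, beside 3.82%. Each of these shares rests on 1 gene. The call for UBP22 was lost without salt replicate 2 (1.17), and that for UBP24 without any single one of the 4 arrays (values from -0.72 to -0.55). The 5 control probe sets for ubiquitin itself, not part of the tests, were higher on both salt arrays than on both standard arrays, by 1.37 to 1.83 times.

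Genes of proteases moved in either direction or were not called. NANA (AT3G12700), an aspartic protease of the chloroplast, had signals of 650.5 and 616 on standard medium and 2864 and 3169 on salt and rose by 2.24 ± 0.16 (adjusted p = 4.1e-09), and its replicate arrays were close together. GAMMA-VPE (AT4G32940), a vacuolar processing enzyme, had 968 and 712 on standard medium and 1222 and 1473 on salt and rose by 0.69 ± 0.19 (adjusted p = 0.021), with a call lost without standard replicate 2 (0.47) or salt replicate 2 (0.56). The other tested vacuolar processing enzymes, BETA-VPE and ALPHA-VPE, were at 0.40 and -0.19 and were not called. Among 23 tested serine carboxypeptidase-like genes 2 fell, beside 3.82% of all genes. The transcript of scpl40 (AT3G63470) had signals of 501 and 502 on standard medium and 186 and 124 on salt and fell by 1.70 ± 0.21 (adjusted p = 8.9e-06), and SCPL34 (AT5G23210) fell by 0.88 ± 0.16 (adjusted p = 8.1e-04). SEC (AT3G04240), SECRET AGENT, which attaches N-acetylglucosamine to proteins, rose by 0.99 ± 0.18 (adjusted p = 0.0011), from 255 and 239 to 501 and 487. In the endoplasmic reticulum list 2 of 15 tested genes rose, BZIP60 and UBC32, beside 4.5% of all genes. ATERDJ3B (AT3G62600) of the same list, a cochaperone of protein folding, fell by 0.76 ± 0.15 (adjusted p = 0.0019), from 1419.5 and 1693 to 851 and 979.

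**Figure D2:**
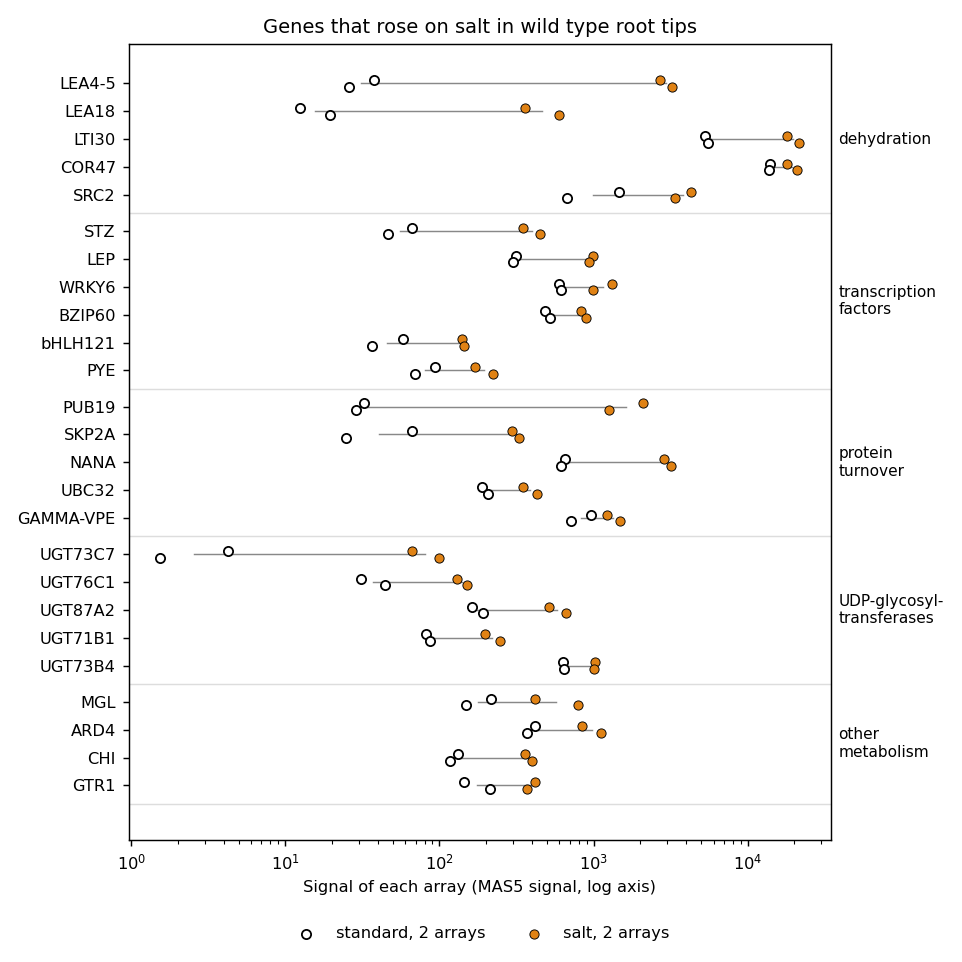
Signals (log axis) on the 2 standard arrays (open circles) and the 2 salt arrays (filled circles) of genes that rose in wild type, grouped by role, with a line that joins the geometric means of the media. As for every called probe set that rose, both salt arrays lie to the right of both standard arrays in all 25 genes. The margins are widest in LEA4-5, PUB19 and LEA18.

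UDP-glycosyltransferases, which attach sugars to hormones and secondary metabolites, had the most risers among the gene lists. Of 35 tested members of this list 6 rose and 1 fell, beside 4.5% and 3.82% of all genes, while their median was -0.02. Members that the annotation gives only as a locus number are missing from it, so these counts do not describe the whole family. UGT87A2 (AT2G30140), known from flowering time control, had signals of 162 and 191 on standard medium and 514 and 661 on salt and rose by 1.71 ± 0.20 (adjusted p = 6.1e-06). UGT76C1 (AT5G05870), which glucosylates cytokinins at a ring nitrogen, had 30.7 and 44.1 on standard medium and 129.7 and 152 on salt and rose by 1.82 ± 0.34 (adjusted p = 0.0012), while UGT76C2, an enzyme of the same reaction, was at -0.06. For both risers the standard arrays and the salt arrays were far apart beside the gap between replicates. UGT71B1 (AT3G21750) rose by 1.34 ± 0.28 and UGT73B4 (AT2G15490), whose salt signals of 1024 and 1011 were nearly the same, by 0.67 ± 0.15 (adjusted p = 0.0031 and 0.0047). UGT73C7 (AT3G53160) went from 4.24 and 1.55 to 66.4 and 99.2, a rise of 3.64 ± 0.82 (adjusted p = 0.0059) from a transcript close to 0, and its call was lost without salt replicate 2 (3.36). UGT85A4 (AT1G78270) rose by 2.26 ± 0.67 (adjusted p = 0.038), with a call lost without standard replicate 2 (1.06), salt replicate 1 (2.42) or salt replicate 2 (2.11). UGT74D1 (AT2G31750), which glucosylates auxin and its oxidised form, fell by 0.59 ± 0.17 (adjusted p = 0.037), with a call lost without standard replicate 1 (-0.48), standard replicate 2 (-0.70) or salt replicate 2 (-0.45).

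Enzymes that handle methionine moved in both directions. MGL (AT1G64660), methionine gamma-lyase, which breaks methionine down, had signals of 216 and 148 on standard medium and 414 and 790.4 on salt and rose by 1.66 ± 0.27 (adjusted p = 2.4e-04). ARD4 (AT5G43850), an acireductone dioxygenase of the cycle that recovers methionine, had 414 and 371 on standard medium and 846 and 1125 on salt and rose by 1.31 ± 0.19 (adjusted p = 6.0e-05). The spread between the salt replicates of MGL was wide, yet the lower stood well above the higher standard array. MSRB9 (AT4G21850), a methionine sulfoxide reductase that repairs oxidised methionine in proteins, had 5297 and 5026 on standard medium and 2241 and 1971 on salt and fell by 1.29 ± 0.15 (adjusted p = 5.1e-06). MSRB6 (AT4G04840) of the same family fell by 1.67 ± 0.41 (adjusted p = 0.011), with a call lost without standard replicate 1 (-1.13) or salt replicate 2 (-0.998), and the other 3 of 5 tested reductases lay between -0.42 and -0.11 and were not called. Among other metabolic genes CHI (AT2G43570), annotated as a chitinase, rose by 1.57 ± 0.22 (adjusted p = 4.0e-05), from 132 and 118 to 360.2 and 397. GTR1 (AT3G47960), a glucosinolate transporter, rose by 1.14 ± 0.25 (adjusted p = 0.0040), with a call lost without standard replicate 1 (0.87). IVD (AT3G45300), isovaleryl-CoA dehydrogenase of leucine breakdown, rose by 0.91 ± 0.24 (adjusted p = 0.017), with a call lost without standard replicate 2 (0.82) or salt replicate 2 (0.62). GSTU27 (AT3G43800) had 1613 and 1048 on standard medium and 492 and 284 on salt and fell by 1.79 ± 0.24 (adjusted p = 3.2e-05). It was 1 of 2 that fell among 13 tested glutathione S-transferases, beside 3.82% of all genes, and the median of that family was -0.08. The other, ATGSTF13, fell by 0.90 (adjusted p = 0.038), with a call lost without any single one of the 4 arrays (values from -0.95 to -0.85).

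Enzymes that cut and rejoin xyloglucan, the polymer that ties cellulose fibrils together, fell in most of the members tested. Of 8 tested xyloglucan endotransglucosylases/hydrolases 6 fell, beside 3.82% of all genes, and the median was -1.32. XTH16 (AT3G23730) had signals of 269 and 273 on standard medium and 29.0 and 21.8 on salt, 10.7-fold lower in the means on salt. XTH21 (AT2G18800) had 477 and 277 on standard medium and 45.1 and 46.3 on salt and XTH18 (AT4G30280) had 579 and 521 on standard medium and 201 and 97.5 on salt, a fall of 1.94 ± 0.25 (adjusted p = 1.6e-05). In XTH16 the standard replicates nearly coincided, whereas the salt arrays of XTH18 differed about as 2 to 1. XTH19 (AT4G30290), the neighbour of XTH18 on the chromosome, fell by 0.71 ± 0.17 (adjusted p = 0.0095), EXGT-A3 (AT2G01850) by 0.70 ± 0.18 (adjusted p = 0.017) and the dimmer XTH33 (AT1G10550) by 2.54 ± 0.66 (adjusted p = 0.016). These last calls depended on single arrays, as XTH19 was lost without standard replicate 1 (-0.67) or salt replicate 2 (-0.47), EXGT-A3 without standard replicate 1 (-0.47) or salt replicate 2 (-0.56) and XTH33 without standard replicate 2 (-2.24) or salt replicate 2 (-2.39), and 3 members remained called without salt replicate 2. XTH20 and XTH32 were at 0.23 and -0.12 and were not called. CSLC04 (AT3G28180), the synthase of the glucan backbone of xyloglucan, fell by 1.51 ± 0.29 (adjusted p = 0.0017), from 429 and 419 to 209 and 102, with a call lost without salt replicate 2 (-1.01), and was the only one called of 7 tested cellulose synthase-like genes.

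Other wall proteins did not move as one. Of 16 tested expansins and expansin-like proteins, which loosen the wall, 2 rose and 2 fell, beside 4.5% and 3.82% of all genes, and the median was -0.25. EXLA1 (AT3G45970) had signals of 813 and 584 on standard medium and 1656 and 1385 on salt and rose by 1.13 ± 0.18 (adjusted p = 2.1e-04), and EXPA9 (AT5G02260) had 586 and 505 on standard medium and 983 and 1039 on salt and rose by 0.89 ± 0.17 (adjusted p = 0.0014). EXPB1 (AT2G20750) had 647 and 816 on standard medium and 351 and 273 on salt and fell by 1.22 ± 0.21 (adjusted p = 5.2e-04). Replicates of these 3 genes were closer to each other than to any array of the other medium. EXPA18 (AT1G62980), the root hair expansin, had 1092 and 1445 on standard medium and 683 and 329 on salt and fell by 1.40 ± 0.41 (adjusted p = 0.037), but the call was lost without standard replicate 1 (-1.60), standard replicate 2 (-1.20) or salt replicate 2 (-0.88). SKU5 (AT4G12420), a membrane-anchored protein related to copper oxidases that steers directional root growth, fell by 1.13 ± 0.19 (adjusted p = 5.2e-04), from 1069 and 825 to 507 and 359.6. Its relatives sks15 (AT4G37160) and sks16 (AT2G23630) fell by 1.20 and by 1.46 (adjusted p = 0.0078 and 0.0047), so all 3 tested members of this list, which was made after the values were seen, fell. Without salt replicate 2 the calls of sks15 (-0.58) and sks16 (-0.83) were lost, and without standard replicate 2 that of sks15 (-1.15). COB (AT5G60920), which orients cellulose in growing root cells, fell by 0.53 ± 0.14 (adjusted p = 0.018), with a call lost without standard replicate 2 (-0.36), salt replicate 1 (-0.54) or salt replicate 2 (-0.53). GH9C3 (AT4G11050), 1 of 11 tested family 9 endoglucanases, fell by 2.02 ± 0.47 (adjusted p = 0.0075), with a call lost without standard replicate 2 (-1.87) or salt replicate 2 (-1.15), and the median of that family was 0.36. Of 18 tested trichome birefringence-like genes, which acetylate wall polymers, 2 fell (3.82% of all genes fell), TBL37 and TBL39, by 0.65 and by 0.63. The call for TBL37 was lost without standard replicate 1 (-0.60), standard replicate 2 (-0.71) or salt replicate 2 (-0.30), and that for TBL39 without standard replicate 1 (-0.49) or salt replicate 2 (-0.37).

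Some peptides and receptors of wall sensing and growth fell, 2 of 11 tested RALF and CLE genes (3.82% of all genes fell) among them. RALFL22, a rapid alkalinization factor peptide of the kind that slows cell expansion, had signals of 2476 and 3152 on standard medium and 1221 and 766 on salt and fell by 1.53 ± 0.24 (adjusted p = 1.7e-04). RALFL27 (AT3G29780) had 475 and 370.3 on standard medium and 188 and 143 on salt and fell by 1.34 ± 0.23 (adjusted p = 6.2e-04). THE1 (AT5G54380), THESEUS1, a receptor-like kinase that responds to defects in cellulose, had 948 and 1179.6 on standard medium and 364 and 290.3 on salt and fell by 1.69 ± 0.20 (adjusted p = 4.6e-06). In all 3 genes the brighter salt array was far under the dimmer standard array. The other 9 tested RALF and CLE genes were not called, and the median of the 11 was -0.39. FER, FERONIA, the receptor-like kinase that binds RALF peptides, was at -0.30 and was not called (adjusted p = 0.36). PSY1R (AT1G72300), a receptor-like kinase named after a growth-promoting peptide, fell by 1.26 ± 0.29 (adjusted p = 0.0074), with a call lost without standard replicate 1 (-1.03) or salt replicate 2 (-0.83).

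Some single genes with roles in growth or hormone action fell. EXO (AT4G08950), EXORDIUM, a brassinosteroid-regulated promoter of growth, had signals of 395 and 177 on standard medium and 73.8 and 91.6 on salt and fell by 1.64 ± 0.30 (adjusted p = 9.8e-04). BAT1 (AT4G31910), an acyltransferase that alters brassinosteroids, had 373 and 415 on standard medium and 146 and 119.98 on salt and fell by 1.54 ± 0.23 (adjusted p = 9.6e-05). Both were chosen after their values were seen, and no gene of the brassinosteroid list had a named probe set. Of 11 tested auxin genes 1 fell, and of 6 gibberellin genes 0 were called. Of 6 cytokinin genes 2 rose and of 9 jasmonate genes 1 rose. Over all genes 4.5% rose and 3.82% fell. SIM (AT5G04470), SIAMESE, an inhibitor of cyclin-dependent kinases that turns dividing cells to endoreduplication, had 1416 and 1686 on standard medium and 755 and 769.6 on salt and fell by 1.02 ± 0.16 (adjusted p = 2.1e-04). The salt arrays of SIM were nearly equal, and both lay far under the standard arrays. SIM was the only gene called among 16 tested genes of chromosome segregation and mitosis (6.25%), beside 3.82% of all genes that fell. The aurora kinases AUR1, AUR2 and AUR3 of that list were at -0.43, -0.38 and -0.09. HTB1 (AT1G07790), a histone H2B, fell by 0.84 ± 0.18 (adjusted p = 0.0048), with a call lost without standard replicate 2 (-0.77) or salt replicate 2 (-0.64). It was the only call among 6 tested histone genes (16.7%, beside 3.82% of all genes that fell). Among 6 tested calmodulin-like proteins, sensors of calcium, CML38 (AT1G76650) had signals of 3.71 and 5.45 on standard medium and 76.2 and 48.6 on salt and CML42 (AT4G20780), which limits the branching of leaf hairs, had 567 and 623 on standard medium and 131 and 163 on salt. CML38 thus rose from a signal near 0, and CML42 fell from a moderate one. CML41 was lower still on the log2 scale, at -2.84, and was not called. CML38 and CML42 were the only calls of the 6, beside 4.5% of all genes that rose and 3.82% that fell. PRA1.B6 (AT5G07110), a protein of membrane trafficking, had 1228 and 1202 on standard medium and 383 and 381 on salt and fell by 1.66 ± 0.19 (adjusted p = 3.6e-06), with replicates that nearly coincided. AT1G13210, to which the annotation gives the symbol ACA.l, a name that may not fit this locus, had 233 and 151 on standard medium and 8.51 and 27.6 on salt and fell to a 10.6-fold lower mean.

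**Figure D3:**
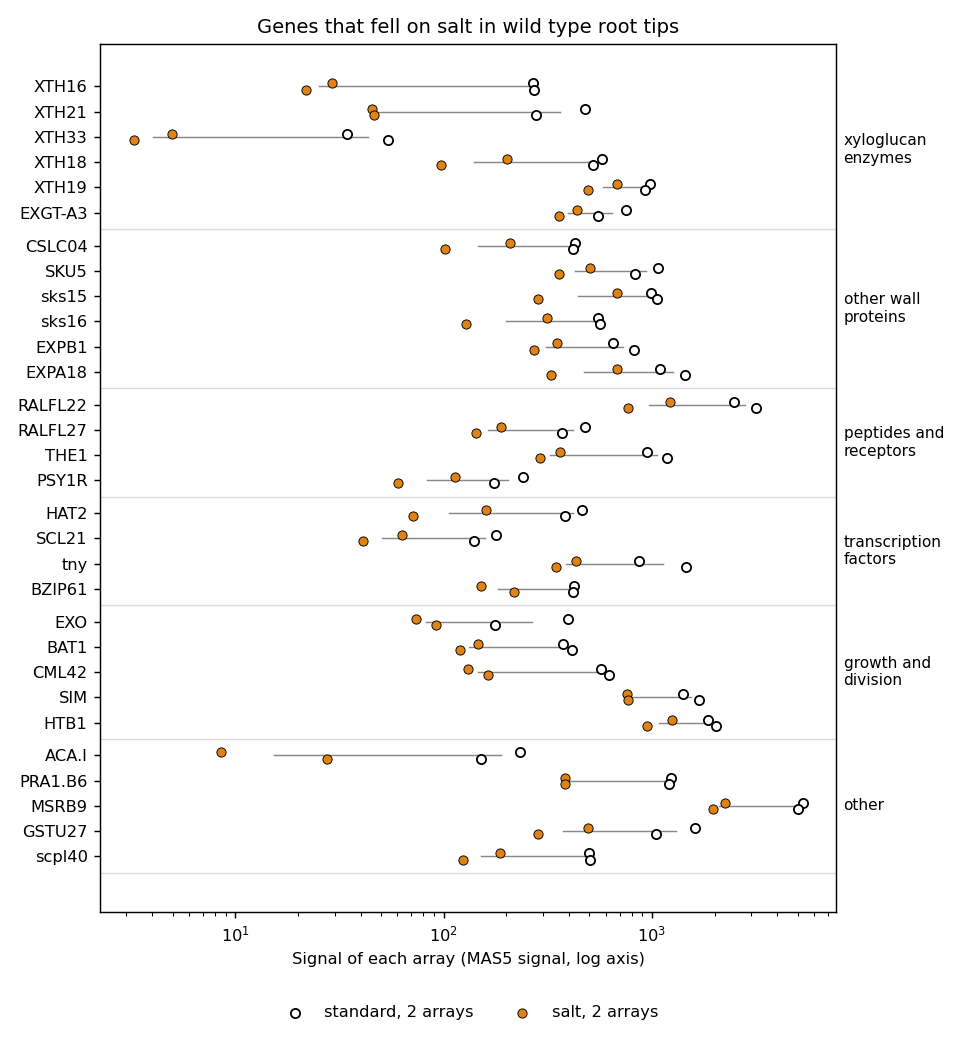
Signals (log axis) on the 2 standard arrays (open circles) and the 2 salt arrays (filled circles) of genes that fell in wild type, grouped by role, with a line that joins the geometric means of the media. As for every called probe set that fell, both salt arrays lie to the left of both standard arrays in all 30 genes. The replicates of PRA1.B6 nearly coincide on both media.

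In several other groups few or no genes were called. None of 69 tested plastid-encoded genes passed in limma, with 2 higher and 3 lower at an unadjusted p under 0.05 and a median of -0.04. The same held for 19 genes of secretion and the exocyst (1 at an unadjusted p under 0.05), 12 SWEET sugar transporters (1), 13 MADS-box factors (2), 12 calmodulin-binding IQD proteins (1), 10 autophagy genes (2), 9 tetraspanins (2), 8 subtilases (3), 8 aldehyde dehydrogenases (2) and 8 tubulins and actins (2). Their medians lay between -0.17 and 0.16. Over all tested probe sets 20.9% had an unadjusted p under 0.05. Of all genes, 4.5% rose and 3.82% fell. Of 9 tested enzymes of the mitochondrial citrate cycle, IDH-VI fell by 0.62 ± 0.15 (adjusted p = 0.013), with a call lost without standard replicate 2 (-0.58) or salt replicate 2 (-0.50), and of 12 tested cytochromes P450, CYP718 and CYP71B23 fell by 1.60 and by 1.66. The call for CYP718 was lost without salt replicate 2 (-1.12), and that for CYP71B23 without standard replicate 1 (-1.37) or salt replicate 2 (-1.28). A change missing from these lists does not show that the level stayed the same, since 2 arrays per medium leave wide errors for dim genes.

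**Figure D4:**
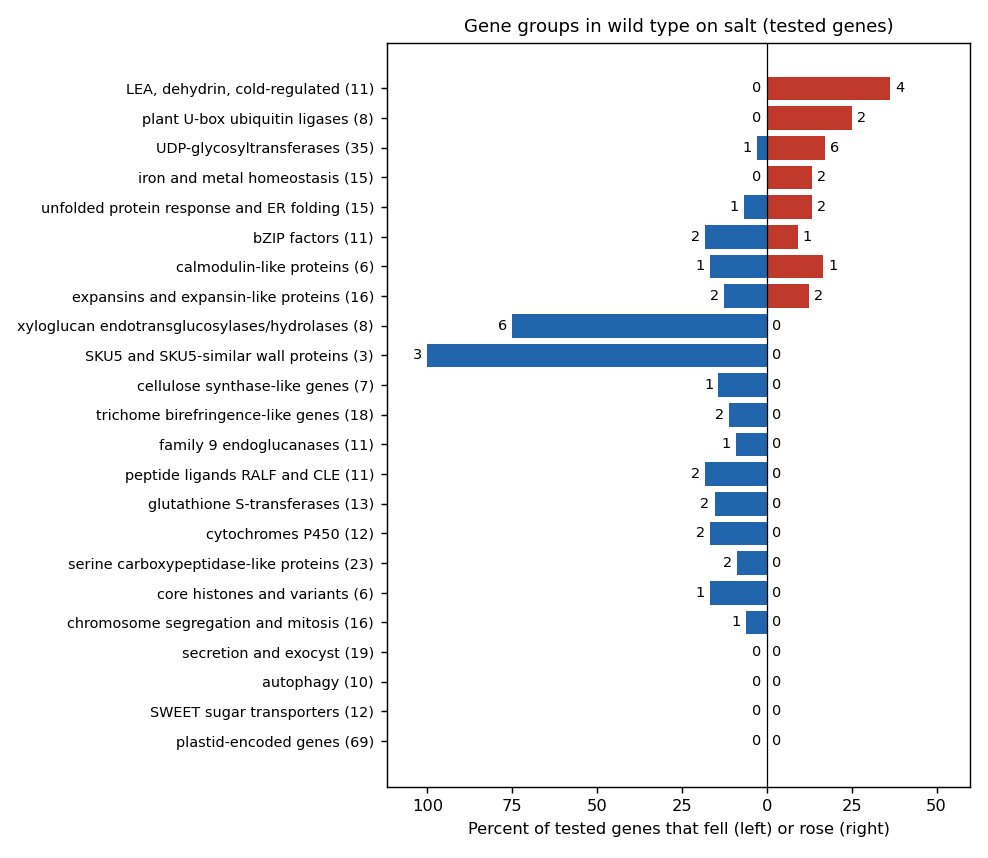
Share of the tested genes of each group that rose (red, right) or fell (blue, left) on salt in wild type, with the number of called genes at each bar and of tested genes in brackets. The xyloglucan enzymes, with 6 of 8 fallen, stand apart on the left, and the dehydration list, with 4 of 11 risen, is furthest to the right. The SKU5 list, with 3 of 3 fallen, was made after the values were seen, so its bar carries no weight. Of all genes tested, 4.5% rose and 3.82% fell.

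Many of the largest changes belonged to loci that the annotation used here gives no name beyond the locus number. AT3G02480 had signals of 30.3 and 52.0 on standard medium and 2436 and 2436 on salt, and AT1G24600 had 64.2 and 47.7 on standard medium and 1581 and 1647 on salt. AT1G05340 was the brightest on salt of the unnamed loci given here, with 757 and 625 on standard medium and 6428 and 10271 on salt and a rise of 3.55 ± 0.22 (adjusted p = 7.5e-10). Among loci without a name, further rises of at least 3.5 on the log2 scale were those of AT3G15670, AT1G49450, AT1G31750 (4.17 ± 0.80), AT1G19200 (4.06 ± 0.55), AT5G17850 (3.97 ± 0.38), AT2G43870 (3.95 ± 0.47), AT5G53990 (3.90 ± 0.59), AT1G16850 (3.69 ± 0.23), AT5G54300 (3.65 ± 0.38), AT5G15190 (3.55 ± 0.23), AT3G17520 (3.54 ± 0.58) and AT1G79520 (3.52 ± 0.74), whose call was lost without standard replicate 2 (2.50). AT5G15190 had replicates close together, with 48.9 and 44.4 on standard medium and 597 and 580.2 on salt, whereas the standard arrays of AT5G54300 were 72.4 and 22.6. On the falling side AT3G46280 was bright on standard medium, with signals of 452 and 655 on standard medium and 81.3 and 59.1 on salt and a fall of 2.90 ± 0.26 (adjusted p = 1.7e-07), and AT5G67390 went from 176 and 172 to 31.9 and 16.7, a fall of 2.70 ± 0.43 (adjusted p = 2.2e-04). The deepest fall, that of AT1G61840, went from 172 and 75.9 to 1.30 and 5.13, salt signals under the 25th percentile of all signals. Of 3451 pairs of adjacent tested genes 12 rose together, 7 fell together and 10 went opposite ways. The 8.32% of all genes called is a share of single genes, and the number of pairs to expect from it was not computed. These counts are therefore descriptions. The pairs included UGT76C1 with AT5G05880 (both rose) and AT5G04460 with SIM (a rise of 0.93 beside the fall).

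The mutants, whose standard and salt arrays are separate from those of wild type, shared many of the calls. Both tests use the same estimate of the spread of a probe set. A probe set with a small spread is therefore more likely to be called in both, and how far this raised the shares below was not tested. In their mean response 1957 probe sets rose (11.5%) and 1813 fell (10.6%). Of those that rose there, 1855 (94.8%) had a positive change in wild type and 726 (37.1%) rose in it, beside 4.99% of all tested probe sets. Of those that fell there, 1699 (93.7%) had a negative change in wild type and 564 (31.1%) fell in it, beside 3.89%, and 0 in either direction were called the opposite way in limma. The larger counts in the mutants come with 6 arrays per medium against 2. The median change of the mutant risers was 0.81 in the mutants and 0.71 in wild type, and that of the mutant fallers -0.64 and -0.53. Of the wild type calls, 726 of 852 rises (85.2%) and 564 of 664 falls (84.9%) were also called in the mutant mean. Across probe sets the 2 responses correlated with r = 0.63, a description over 17059 probe sets that share the same arrays.

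Among the genes named above, NANA changed by 2.51 (scm), 1.73 (cpc try) and 2.21 (wer myb23) on the log2 scale beside 2.24 ± 0.16 in wild type. SKP2A changed by 2.49 (scm), 2.45 (cpc try) and 3.04 (wer myb23), and UGT87A2 by 1.98 (scm), 1.88 (cpc try) and 1.81 (wer myb23). LEP stood at 1.35 (scm), 1.37 (cpc try) and 1.45 (wer myb23) and THE1 at -1.45 (scm), -2.32 (cpc try) and -1.98 (wer myb23). For these genes the 3 mutants lay on both sides of wild type or close to it, and none of them differed from the mutant mean in limma (adjusted p from 0.93 to 0.98). WRKY6 had 1.44 (scm), 1.19 (cpc try) and 1.53 (wer myb23), above the wild type value of 0.91, and HAT2 -1.14 (scm), -1.24 (cpc try) and -0.98 (wer myb23), a smaller fall than in wild type, without a called difference (adjusted p = 0.83 and 0.83). The plot of the 4 genotypes gives these values with those of genes further from the mutants.

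**Figure D5:**
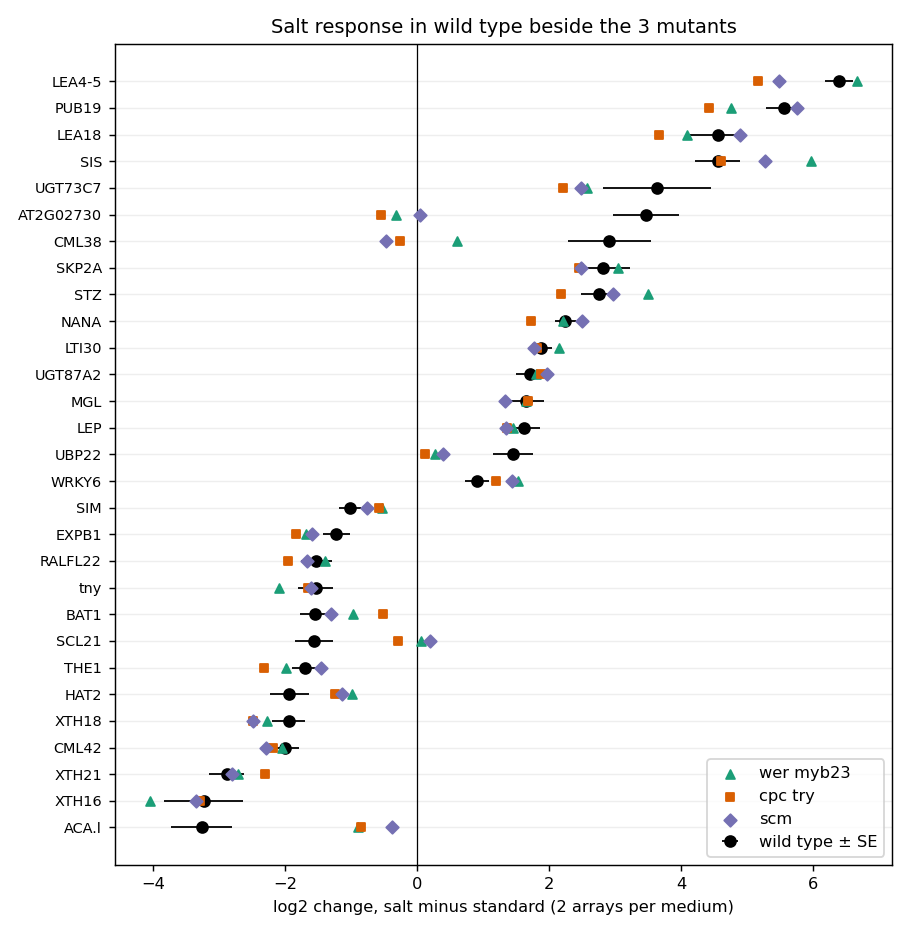
Log2 change on salt of 29 genes in wild type (black, ± SE) and in wer myb23 (triangles), cpc try (squares) and scm (diamonds), 2 arrays per medium in each. AT2G02730, CML38, SCL21 and UBP22 lie between -0.55 and 0.60 in all 3 mutants, and of these only AT2G02730 differed from the mutant mean at an adjusted p under 0.05.

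A test of the difference between the wild type response and the mean response of the 3 mutants called 1 probe set (0.00586%), and 1013 (5.94%) had an unadjusted p under 0.05. That probe set belongs to AT2G02730, with wild type signals of 2.30 and 3.08 on standard medium and 49.8 and 101 on salt and a rise of 3.47 ± 0.50, against changes of 0.05 (scm), -0.55 (cpc try) and -0.32 (wer myb23). The difference was 3.74 ± 0.58 (SE, adjusted p = 0.044). Its standard signals were close to 0 and its salt signals well above them. The difference was not called without salt replicate 2 (6 other probe sets were), under quantile normalization, with a pseudocount of 16, without the filter or with the filter at the 50th percentile, and with a replicate block 1 other probe set was called instead. Some genes named for their change in wild type had mutant values near 0, and since they were chosen by the wild type value these gaps are descriptions. CML38 stood at -0.47 (scm), -0.25 (cpc try) and 0.60 (wer myb23), SCL21 at 0.19 (scm), -0.29 (cpc try) and 0.06 (wer myb23), and UBP22 at 0.39 (scm), 0.11 (cpc try) and 0.27 (wer myb23). ACA.l, which fell by 3.26 in wild type, stood at -0.38 (scm), -0.85 (cpc try) and -0.89 (wer myb23). The adjusted p of the difference was 0.41 for CML38, 0.31 for SCL21, 0.71 for UBP22 and 0.28 for ACA.l, so none of the 4 passed.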

How the data were processed

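Per the labels, RNA of pooled root tips was hybridised to Affymetrix ATH1 arrays. The authors deposited 1 table of signal intensity values on a linear scale, made with MAS5 per the submitters' processing notes. For the MAS5 version, scaling target and background step: not given in the sources used here.

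Gene names came from the platform annotation updated through RefSeq locus tags. Of the 22746 probe sets that are not controls, 13513 had 1 gene, 503 several and 8730 no named gene, and genes without a named probe set were not analysed here. A gene with several tested probe sets was taken at the one with the highest mean log2 value.

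A pseudocount of 4.10, the 10th percentile of the table, was added before log2, and probe sets with a mean log2 value under the 25th percentile were left out. limma 3.58.1 in R 4.3.3 fitted 1 mean per group over all 16 arrays, with a trend in the spread, 8 residual degrees of freedom and 11.96 prior degrees of freedom, and Benjamini-Hochberg adjustment over the 17059 tested probe sets. Tests were two-sided. Tables were made with Python 3.11.15, pandas 2.3.3 and numpy 2.4.6, and the fit was tested on simulated data. With replicate differences that correlated at r = 0.02 between the media, the replicate numbers were not taken as pairs. The labels call the replicates biological but do not say whether they were grown apart, so p-values measure the spread between these arrays. Other scalings, pseudocounts, filters, spreads and left-out arrays were tried.

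The wild type arrays, the gene lists and the tests were chosen with earlier results of these data known. Genes were named by a rule: the 20 largest rises and the 20 largest falls with arrays that do not overlap, up to 4 called members of each list of loci or name patterns (the 2 brightest where none was called) and up to 6 genes in each direction of the difference from the mutants. Other genes in the text, among them SKP2A, NANA, SRC2, MGL, ARD4, CHI, GTR1, IVD, SEC, UGT74D1, EXO, BAT1, SCL21, PSY1R, EXGT-A3 and the members of the lists for the SKU5 family, methionine sulfoxide reductases, PRA1 proteins and AP2/ERF factors, were chosen after their values were seen.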

Additional observations from a re-analysis of the deposited data

Results flagged for a closer look

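AT2G02730 stood out by the test of the difference between genotypes. It rose in wild type and was near 0 in the mutants, and the log2 change in wild type exceeded the mutant mean by 3.74. The difference was no longer called without salt replicate 2, under quantile normalization, a pseudocount of 16, no filter, the filter at the 50th percentile or a replicate block.

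The control probe set for 25S ribosomal RNA, which takes no part in the tests, was brighter on salt. Its signals in wild type were 4421 and 4746 on standard medium and 10299 and 8606 on salt, a ratio of 2.06, and the part of this shift in the results was not tested.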

How the results depend on the processing

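The count of 1516 called probe sets stayed within 1.5 times of its value under median centring (1525, with 758 higher and 767 lower), quantile normalization (1646), pseudocounts of 1 and 16 (1463 and 1612), no filter (1382), a filter at the 50th percentile (1423) and no trend in the spread (1066). It fell to 1010 with only the 4 wild type arrays in the fit. Of the 150 named genes, 46 had a weaker call with only the wild type arrays and 43 without the trend. These changes are not listed gene by gene here. Leaving out 1 array at a time gave 917 to 1553 calls (726 higher and 827 lower at the highest, without salt replicate 1), with 984 without standard replicate 2 and 917 without salt replicate 2. With the replicate number as a block it was 1602, although the replicate differences of the media correlated at only 0.02. The single called difference from the mutants became 0 under quantile normalization, a pseudocount of 16, no filter and the filter at the 50th percentile, and 2 without the trend. The replicate block called 1 other probe set, and leaving out 1 array gave 6 to 22. The cause was not tested. The wild type rise of AT2G02730 itself was not called with only the 4 wild type arrays. COR15B, at 0.21 and not called, ranged from -0.27 without salt replicate 2 to 0.70 without salt replicate 1. Dim probe sets and 2 arrays per medium limit what could be called.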
